A study of Rattus norvegicus with 52 samples.

Results

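The measurements described here are the lung transcript levels of 33 genes of the Nrf2 and antioxidant system in rats given quaternary ammonium compounds into the airways. The 33 genes were taken as a named list and found by symbol among 34034 annotated symbols. All 33 were present and all 33 passed the filter on low counts, among 17796 genes tested. Quaternary ammonium compounds are positively charged surfactants used as disinfectants and preservatives. Nrf2, encoded by Nfe2l2, is a transcription factor that Keap1 holds back and marks for degradation in resting cells. When oxidants or electrophiles modify Keap1, Nrf2 accumulates, pairs with a small Maf protein and binds antioxidant response elements in genes for glutathione synthesis, thioredoxin recycling, heme breakdown and detoxification. In lung these enzymes are best known from airway epithelium and macrophages, and the extracellular superoxide dismutase Sod3 is known to be abundant in the lung. Not every listed gene is regarded as a main Nrf2 target: catalase and the superoxide dismutases are antioxidant enzymes with several other regulators.

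Wild-type SD rats received 1 intratracheal instillation, and lung RNA was sequenced in 52 libraries that form 13 groups of 4. The Control group was given distilled water, labelled DW. The doses were 0.125, 0.25 and 0.5 for both ABD and ADEB18. They were 0.25, 0.5 and 1 for BKC, while DDAC had 0.0625, 0.125 and 0.25. The labels do not give the unit of the dose, the time between instillation and sampling, the sex or age of the rats, nor whether a library holds 1 lung or a pool, so p-values measure the spread between these libraries. The names behind the letters are not in the labels. BKC commonly stands for benzalkonium chloride and DDAC for didecyldimethylammonium chloride. ABD and ADEB18 are code names. Every library was a QuantSeq library made from 500 ng of total RNA, an assay that reads the 3′ end of each transcript, so that counts are not divided by transcript length and levels are compared here only within a gene.

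Total counts per library ranged from 8026084 to 13852249, with 16932 to 19355 symbols above 0. Summed over 9 markers each, alveolar type 2 cell transcripts were at 12816 to 25815 CPM, counts scaled to a common library size, club cell transcripts at 3637 to 15072 CPM and alveolar type 1 cell transcripts at 2812 to 8871 CPM, and no marker of these 3 lists was at 0 in any library, so the labelled tissue was present throughout. Cardiac muscle transcripts ranged from 102 to 8074 CPM between libraries. All libraries of DDAC 0.25 were low in them, at 125 to 198 CPM, while Control ranged from 116 to 3198 CPM. A difference of DDAC 0.25 from Control therefore goes along with a difference in cardiac muscle transcripts. Sequences close to 3 members are listed as separate symbols at low levels: Ftl1l1 had 1 to 23 counts per library, Prdx1l1 had 0 to 31 and Gstp3 had 0 to 10, and reads shared with Ftl1, Prdx1 or Gstp1 could have been assigned to either or to neither. In tissue RNA, fewer cells of a type and less RNA per cell cannot be told apart.

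The antioxidant response element is a short motif, and its letters could be looked up for 27 of the 33 genes in RefSeq promoters of the GRCr8 build. The 250 bases before each start were searched on both strands for TGACNNNGC and for the looser TGANNNNGC, which includes the first. TGACNNNGC was present before 8 of the 27 genes (29.6%), against 11.02% of 27457 symbols with a promoter and 10.1% of 33469 promoters. TGANNNNGC was present before 18 of the 27 (66.7%), against 36.6% of symbols and 34.7% of promoters. The other 6 genes are Hmox1, Ftl1, Fth1, Gsr, Prdx6 and Sod3. A match is only a match of letters in this window. The 8 windows with TGACNNNGC are shown because they hold the best known letters of the element, with the motif, or its reverse complement, in capitals, each in the direction of its gene. The Gpx2 window is shorter because the motif ends 5 bases before the transcription start.
Txnrd1: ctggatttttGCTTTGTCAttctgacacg
Prdx1: cagggaaagcGCTGAGTCAtaccccgccg
Gpx2: acctggtttcGCTAAGTCAttct
Sod2: ggcgctgccgGCAGGGTCAgcgcctagct
Gclm: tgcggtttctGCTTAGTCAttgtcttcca
Me1: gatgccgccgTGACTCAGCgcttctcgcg
Gstp1: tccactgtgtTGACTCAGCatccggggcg
Ephx1: caacagatcaGCTGAGTCAttggggctat
The first 4 belong to genes that rose in at least 1 comparison with Control, described below, and the last 4 to genes called in none. On GRCr8 the windows lie at chr7:22755964-22755992 (minus strand) for Txnrd1, chr5:135383761-135383789 (plus) for Prdx1, chr6:101230034-101230056 (minus) for Gpx2 and chr1:50050185-50050213 (minus) for Sod2. Those of Gclm, Me1, Gstp1 and Ephx1 lie at chr2:213031953-213031981 (plus), chr8:96540393-96540421 (minus), chr1:210769748-210769776 (minus) and chr13:95263156-95263184 (minus). The counts themselves were made on mRatBN7.2, per the submitters' processing notes, so these positions do not apply to them.

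Members of the list changed in 3 groups above all: ADEB18 0.5, BKC 0.5 and BKC 1. A gene is called where its adjusted p in edgeR's quasi-likelihood test is under 0.05 over all 17796 genes. In ADEB18 0.5, 7 members rose and 2 fell (27.3% of 33), where 4.66% of all genes were called, 2.56% higher and 2.10% lower. In BKC 0.5, 9 rose and 3 fell (36.4%, against 9.15% of all genes, 4.86% higher and 4.29% lower). In BKC 1, 7 rose and 2 fell (27.3%, against 10.4% of all genes, 5.79% higher and 4.56% lower). Leaving out 1 library at a time gave 4 to 8 members in ADEB18 0.5, 3 to 14 in BKC 0.5 and 8 to 10 in BKC 1. In ADEB18 0.5, 4 were called without its replicate 2, without Control replicate 2 or without Control replicate 4, and 5 without its replicate 3. In BKC 0.5, 3 (9.09% of 33) were called without its replicate 3 or without Control replicate 4, and 6 without its replicate 2. With only BKC 0.5 and Control in the fit, 7 were called. The share of all genes called was not computed for these fits. The median log2 fold change of the 33 members was 0.27, 0.27 and 0.29 in these 3 groups, while that of all genes was 0.00, 0.00 and -0.01. All 12 comparisons share the 4 Control libraries.

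The other 9 dosed groups held 2 calls. Sod3 fell in BKC 0.25, where 0.208% of all genes were called and 0.146% fell. Mafg fell in DDAC 0.0625, where 2.32% were called and 1.39% fell. No member was called by edgeR in ABD 0.125, 0.25 or 0.5 (background 0%, 0.0225% and 0.0169%), with 1, 3 and 4 members at an unadjusted p under 0.05 and none called by DESeq2. ADEB18 0.125 and 0.25 also held no call (background 0.0393% and 0.0393%), with 3 members each at an unadjusted p under 0.05 and none by DESeq2. No member was called in DDAC 0.125 and DDAC 0.25, although 1.48% and 2.47% of all genes were. There, 8 and 7 members had an unadjusted p under 0.05, and DESeq2 called 0 and 3.

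**Figure D1:**
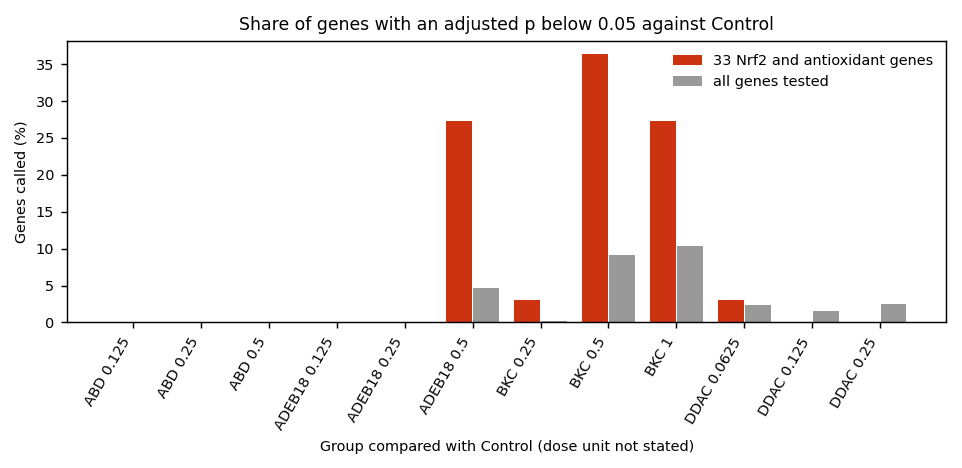
Percentage of genes called against Control (vertical axis) in each dosed group, for the 33 Nrf2 and antioxidant genes (red) and for all 17796 genes tested (grey). The red bars stand well above the grey ones in ADEB18 0.5 (27.3% against 4.66%), BKC 0.5 (36.4% against 9.15%) and BKC 1 (27.3% against 10.4%), and are at 0 in all 3 ABD groups.

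**Figure D2:**
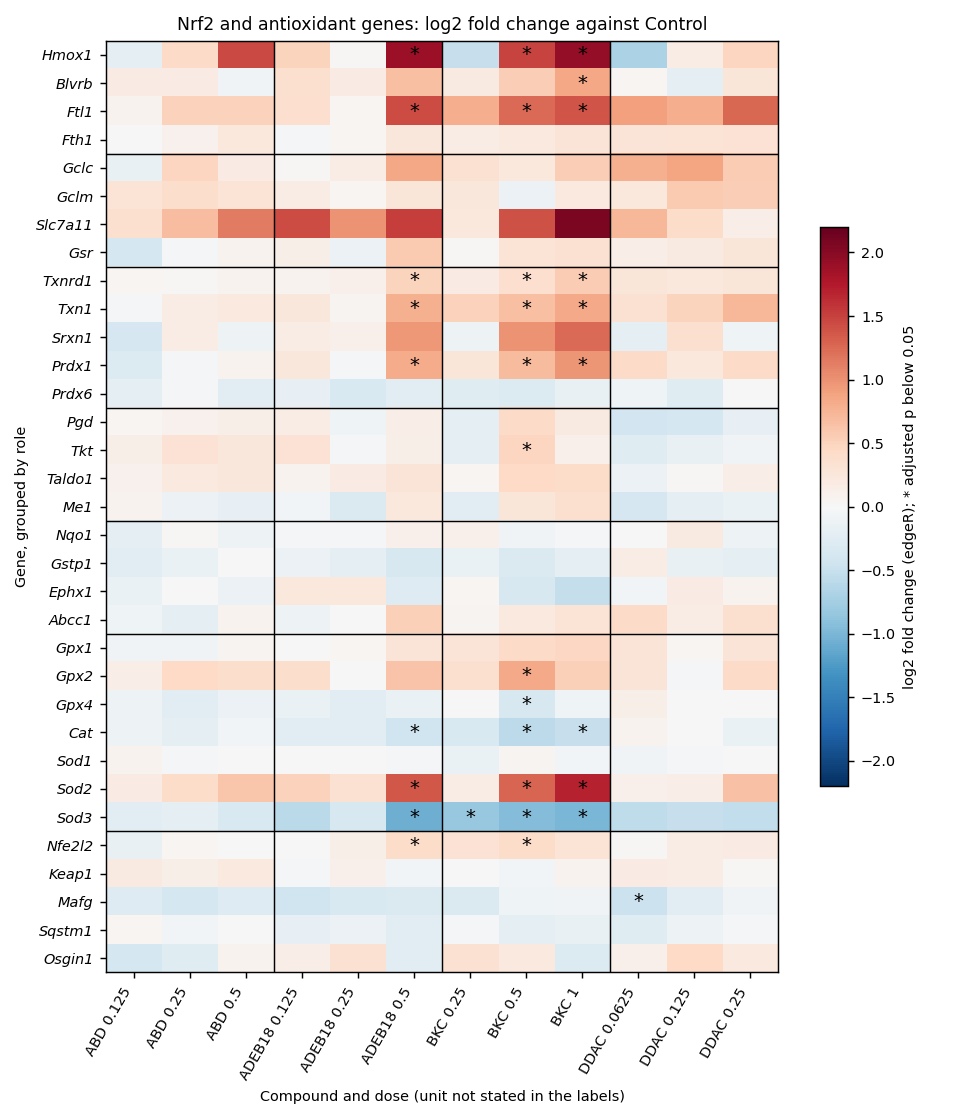
The log2 fold change against Control of each of the 33 genes (rows, grouped by role) in each of 12 dosed groups (columns), from blue for lower to red for higher, with an asterisk where the adjusted p is under 0.05. Asterisks gather in the ADEB18 0.5, BKC 0.5 and BKC 1 columns and in the rows of Hmox1, Ftl1, Txnrd1, Txn1, Prdx1, Cat, Sod2, Sod3 and Nfe2l2.

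Markers of other cell types also differed from Control in these 3 groups, and some of them in other groups. General macrophage markers summed wholly below Control, whose lowest library had 12780 CPM, in ADEB18 0.125 (9794 to 11490 CPM) and BKC 0.25 (8437 to 12312). The same held in ABD 0.25 (11327 to 12630) and DDAC 0.125 (10564 to 12563). Alveolar type 1 markers summed wholly below Control in ADEB18 0.125 (5027 to 5931 CPM). No marker of these lists was called there. Summed over 12 markers of recruited monocytes and macrophages, Control libraries ranged from 1175 to 1482 CPM, against 2485 to 2592 CPM in ADEB18 0.5, 2031 to 3821 CPM in BKC 0.5 and 2073 to 4146 CPM in BKC 1, and 5, 5 and 7 of the 12 rose. Fn1 was the highest gene of the list in Control, ADEB18 0.5 and BKC 1, and Lgals3 in BKC 0.5. Markers shared by macrophages in general, led by Lyz2, ranged from 12779.8 to 18909.9 CPM in Control, 7524 to 10918 in ADEB18 0.5, 9417 to 13595 in BKC 0.5 and 7181 to 10312 in BKC 1, with 0, 1 and 2 of 8 higher and 2, 1 and 2 lower. Markers of resident alveolar macrophages, led by Car4, which lung capillaries also express, ranged from 333 to 416 CPM in Control, 280.5 to 321 in ADEB18 0.5, 266 to 329 in BKC 0.5 and 239 to 366 in BKC 1. The first 2 of these dosed groups lay wholly below Control, and 1 of 9 markers tested was lower, in BKC 1. Markers of dividing cells ranged from 347 to 453 CPM in Control, 658 to 722 in ADEB18 0.5, 597 to 1175 in BKC 0.5 and 585 to 918 in BKC 1, with 4, 7 and 4 of 8 higher, beside 1 in DDAC 0.25. Endothelial markers, led by Ramp2, went from 3035 to 4018 CPM in Control to 2482 to 2719.5, 1799 to 2757 and 2189 to 2874 CPM, with 1, 7 and 3 of 11 lower. Alveolar type 1 markers, led by Ager, went from 6003 to 8871 CPM to 4312 to 5679, 2812 to 5691 and 3305 to 5193 CPM, with 1, 5 and 4 of 9 lower, beside 1 higher in DDAC 0.25. Club cell markers, led by Scgb1a1, ranged from 7768 to 13304 CPM in Control, 6117 to 7438 in ADEB18 0.5, 4689 to 9568 in BKC 0.5 and 3637 to 8515 in BKC 1, with 1, 1 and 2 of 9 lower. Alveolar type 2 markers ranged from 18513 to 19822 CPM in Control, 18358 to 23084 in ADEB18 0.5, 17686 to 22417 in BKC 0.5 and 16636 to 25815 in BKC 1, with 0, 1 and 3 of 9 higher and 1, 0 and 1 lower. Of 8 ciliated cell markers 1 fell in each of the 3 groups, and 1 also in DDAC 0.125 and in DDAC 0.25. Their sum ranged from 648 to 752 CPM in Control, 508 to 691 in ADEB18 0.5, 478 to 625 in BKC 0.5, 326 to 637 in BKC 1 and 418 to 544 in DDAC 0.25. The groups BKC 0.5, BKC 1, DDAC 0.25 and ABD 0.5 (432 to 619 CPM) lay wholly below Control. Of 8 neutrophil markers tested none was called in these 3 groups, and the granule markers were at 0 in part (Elane in Control, BKC 0.5 and BKC 1, Mpo in ADEB18 0.5 and BKC 1). Of 10 erythroid markers, led by Hba-a1, none was called in the 3 groups. Their sum ranged from 29141 to 38796 CPM in Control, 18052 to 30192 in ADEB18 0.5, 12496 to 29032 in BKC 0.5 and 17168 to 25098 in BKC 1, and both BKC groups lay wholly below Control. Their median log2 fold change was -0.44, -0.77 and -0.48 in the 3 groups. Of all genes, 2.56%, 4.86% and 5.79% rose and 2.10%, 4.29% and 4.56% fell in ADEB18 0.5, BKC 0.5 and BKC 1. In DDAC 0.125 and DDAC 0.25, 1.48% and 2.47% were called. A single call in a short list is therefore not by itself a difference in that cell type. The part of the shifts in marker levels in the results on the antioxidant genes was not tested.

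Hmox1, which encodes heme oxygenase 1 and opens heme into biliverdin, iron and carbon monoxide, rose in all 3 groups. It stood at 34.6, 26.8, 42.6 and 36.7 CPM in the 4 Control libraries. The ADEB18 0.5 libraries read 220.1, 103, 101 and 90.97 CPM, those of BKC 0.5 read 82.7, 61.8, 153 and 96.9 CPM and those of BKC 1 read 89.7, 214, 124 and 109 CPM. All 12 of these libraries lay above all 4 Control libraries. The share of all genes whose libraries separate from Control in this way was not computed, here or for the genes below. The log2 fold change of Hmox1 was 1.87 ± 0.46 (SE, adjusted p = 0.0135) in ADEB18 0.5, 1.49 ± 0.46 (SE, adjusted p = 0.0319) in BKC 0.5, and 1.93 ± 0.46 (SE, adjusted p = 0.00502) in BKC 1. The BKC 1 call remained without any 1 library (highest adjusted p = 0.0333). That of ADEB18 0.5 was lost without any 1 of 2 libraries, ADEB18 0.5 replicate 1 or Control replicate 2 (adjusted p at most 0.0700), and that of BKC 0.5 was lost without any 1 of 4 libraries, BKC 0.5 replicate 3 or Control replicates 1, 2 and 4 (adjusted p at most 0.174).

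Some libraries of other groups were also high in Hmox1. ABD 0.25 read 29.6, 73.2, 29.3 and 55.99 CPM and ABD 0.5 read 206, 88.2, 27.4 and 63.3 CPM. ADEB18 0.125 read 38.96, 80.6, 29.5 and 48.3 CPM and ADEB18 0.25 read 38.3, 54.8, 28.1 and 22.6 CPM. DDAC 0.125 read 20.8, 95.4, 20.6 and 21.03 CPM and DDAC 0.25 read 25.4, 62.1, 84.9 and 22.1 CPM. Each of these 6 groups held at least 1 library above the highest Control library and others within or below the Control range. None of their differences from Control was called (for ABD 0.5, a log2 fold change of 1.45 ± 0.46 SE, adjusted p = 0.448). Sod2, the mitochondrial superoxide dismutase, was highest in the same single library of ABD 0.5 (replicate 1, 262 CPM) and of DDAC 0.125 (replicate 2, 129.8 CPM), and in replicates 2 and 3 of DDAC 0.25.

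Ftl1, the ferritin light chain that helps store iron, also rose in the 3 groups. Control libraries had 66.5, 78.02, 63.3 and 49.8 CPM. ADEB18 0.5 had 201, 198, 155 and 146 CPM, BKC 0.5 had 202, 144, 188 and 76.1 CPM and BKC 1 had 186, 189.7, 194 and 102 CPM. Only BKC 0.5, through its replicate 4, overlapped Control. For Ftl1, the log2 fold change was 1.44 ± 0.38 (SE, adjusted p = 0.0193) in ADEB18 0.5, 1.24 ± 0.38 (SE, adjusted p = 0.0286) in BKC 0.5 and 1.38 ± 0.38 (SE, adjusted p = 0.0130) in BKC 1. The 3 calls were each lost without at least 1 library: that of ADEB18 0.5 was lost without any 1 of 2 libraries, ADEB18 0.5 replicate 2 or Control replicate 4 (adjusted p at most 0.0847), that of BKC 0.5 was lost without any 1 of 5 libraries, BKC 0.5 replicates 1 and 3 or Control replicates 1, 3 and 4 (adjusted p at most 0.114) and that of BKC 1 was lost without Control replicate 4 (adjusted p = 0.0569). Ftl1 was not called in any DDAC group, where its group means were 121 ± 9.68, 112 ± 36.5 and 155 ± 41.5 CPM (SD, n = 4) with increasing dose, against 64.4 ± 11.6 CPM in Control. The libraries of DDAC 0.0625 also lay wholly above Control. DDAC 0.25 had an edgeR log2 fold change of 1.27 ± 0.38 (SE, adjusted p = 0.0545), which DESeq2 called (adjusted p = 0.0333).

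Blvrb, a biliverdin reductase that acts after heme oxygenase, was called in BKC 1 alone among the 12 comparisons, at 31.3 ± 5.36 CPM against 17.5 ± 4.43 CPM in Control (SD, n = 4; log2 fold change 0.84 ± 0.28 SE, adjusted p = 0.0409). That call was lost without any 1 of 6 libraries, BKC 1 replicates 1, 2 and 4 or Control replicates 1, 2 and 3 (adjusted p at most 0.109). Fth1, the ferritin heavy chain, was called in no comparison, and its log2 fold changes ran from -0.03 in ADEB18 0.125 to 0.32 in DDAC 0.25.

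**Figure D3:**
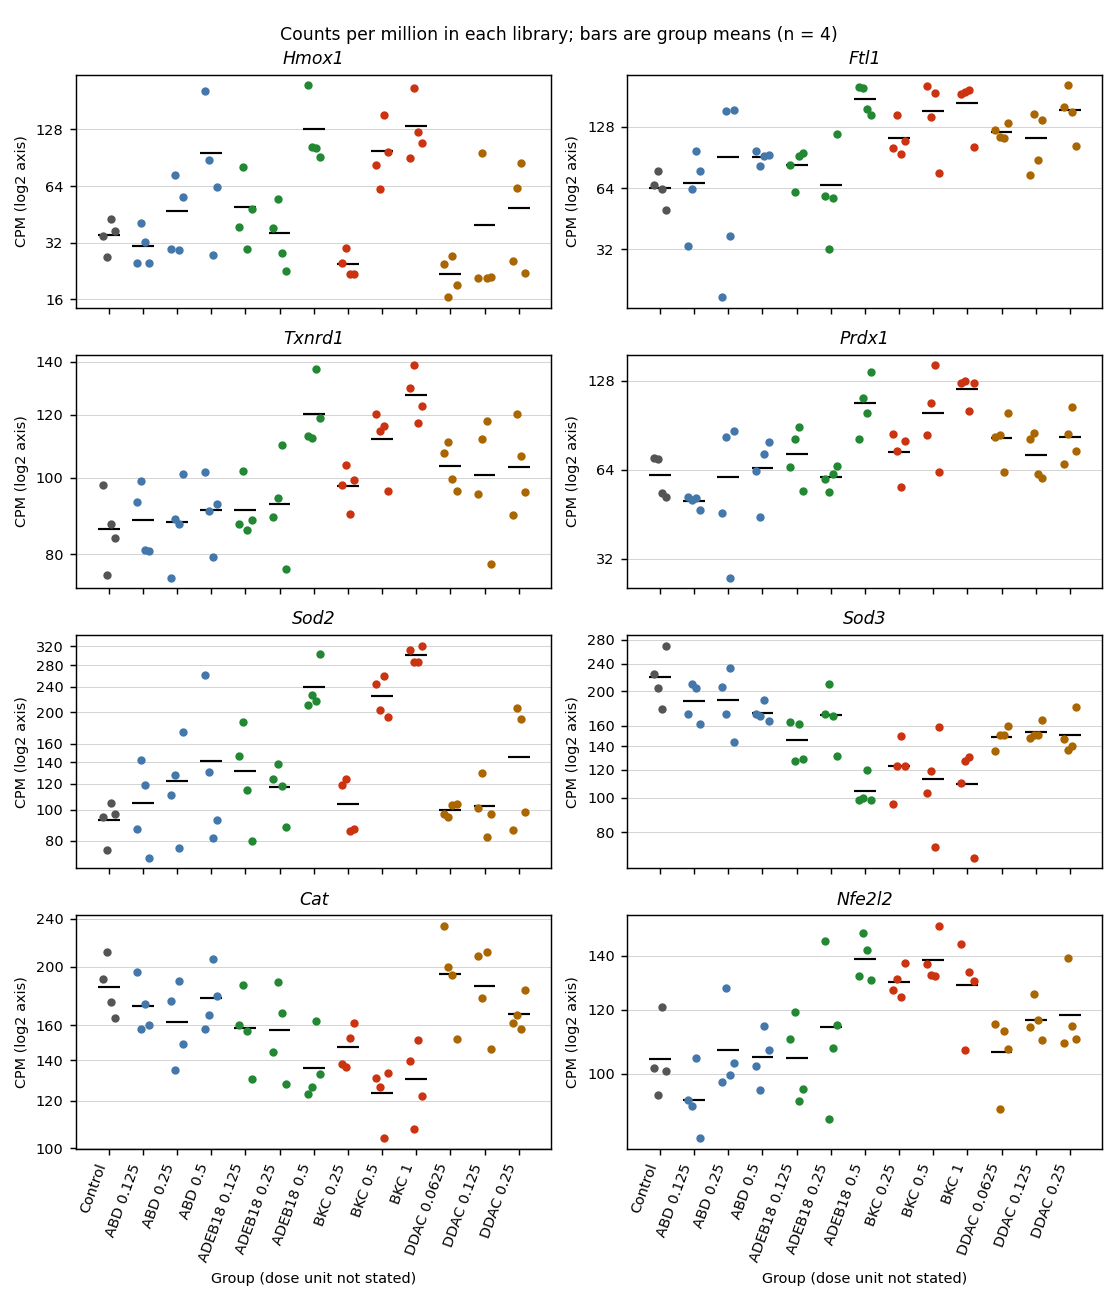
CPM of 8 of the genes (log2 axes, 1 panel each) in each library, by group, with the mean of 4 libraries as a bar, coloured grey for Control, blue for ABD, green for ADEB18, red for BKC and brown for DDAC. Hmox1, Sod2 and Txnrd1 are high in ADEB18 0.5, BKC 0.5 and BKC 1, where Sod3 and Cat are low, and 1 ABD 0.5 library reaches 206 CPM of Hmox1.

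Txnrd1, Txn1 and Prdx1, which form a chain that passes electrons from NADPH through thioredoxin to peroxides, rose together in the 3 groups. Txnrd1 is the cytosolic thioredoxin reductase. Its Control libraries read 97.8, 75.3, 87.3 and 83.8 CPM, and those of ADEB18 0.5 read 113, 112, 137 and 119 CPM. BKC 0.5 had 120.3, 114, 116 and 96.2 CPM and BKC 1 had 129.6, 138, 117 and 123 CPM. Only replicate 4 of BKC 0.5 lay within the Control range. For Txnrd1 this gave a log2 fold change of 0.48 ± 0.12 (SE, adjusted p = 0.0118) in ADEB18 0.5, 0.38 ± 0.12 (SE, adjusted p = 0.0315) in BKC 0.5 and 0.56 ± 0.12 (SE, adjusted p = 0.00123) in BKC 1. The call in BKC 1 remained without any 1 library (highest adjusted p = 0.00952), that in ADEB18 0.5 was lost without any 1 of 2 libraries, ADEB18 0.5 replicate 3 or Control replicate 2 (adjusted p at most 0.0565), and that in BKC 0.5 was lost without any 1 of 5 libraries, BKC 0.5 replicates 1, 2 and 3 or Control replicates 2 and 4 (adjusted p at most 0.117). The BKC 0.5 call was also lost with no filter on low counts and with the 2 groups fitted alone (adjusted p = 0.0639 and 0.104).

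Txn1, thioredoxin itself, was at 379, 545, 429.8 and 449.8 CPM in Control. The ADEB18 0.5 libraries had 805, 831, 798 and 664 CPM, those of BKC 0.5 had 799, 694, 815 and 556 CPM and those of BKC 1 had 859.7, 763, 806 and 776 CPM. None of the 12 overlapped Control. On the log2 scale Txn1 was higher by 0.78 ± 0.22 (SE, adjusted p = 0.0306) in ADEB18 0.5, 0.67 ± 0.22 (SE, adjusted p = 0.0441) in BKC 0.5 and 0.83 ± 0.22 (SE, adjusted p = 0.0103) in BKC 1. The BKC 1 call remained without any 1 library (highest adjusted p = 0.0366). In ADEB18 0.5 it was lost without any 1 of 6 libraries, ADEB18 0.5 replicates 1, 2 and 3 or Control replicates 1, 3 and 4 (adjusted p at most 0.0838), and in BKC 0.5 it was lost without any 1 of 6 libraries, BKC 0.5 replicates 1, 2 and 3 or Control replicates 1, 3 and 4 (adjusted p at most 0.154). DDAC 0.25, at 752 ± 135 CPM against 451 ± 69.5 CPM in Control (SD, n = 4), was not called by edgeR (log2 fold change 0.74 ± 0.22 SE, adjusted p = 0.0543), but was by DESeq2 (adjusted p = 0.0178).

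Prdx1, a peroxiredoxin that breaks down hydrogen peroxide, had 69.98, 69.8, 53.6 and 51.9 CPM in the Control libraries. ADEB18 0.5 read 81.5, 112, 100.01 and 137 CPM, BKC 0.5 read 84.01, 107, 144 and 62.7 CPM and BKC 1 read 126, 128.3, 101 and 126 CPM. BKC 0.5 overlapped Control through its replicate 4, and the other 2 groups did not overlap it. Prdx1 had a log2 fold change of 0.81 ± 0.23 (SE, adjusted p = 0.0323) in ADEB18 0.5, 0.70 ± 0.23 (SE, adjusted p = 0.0441) in BKC 0.5 and 0.97 ± 0.23 (SE, adjusted p = 0.00420) in BKC 1. The BKC 1 call remained without any 1 library (highest adjusted p = 0.0249). That of ADEB18 0.5 was lost without any 1 of 6 libraries, ADEB18 0.5 replicates 2, 3 and 4 or Control replicates 2, 3 and 4 (adjusted p at most 0.119), and that of BKC 0.5 was lost without any 1 of 5 libraries, BKC 0.5 replicates 2 and 3 or Control replicates 2, 3 and 4 (adjusted p at most 0.295) and with the 2 groups fitted alone (adjusted p = 0.0812).

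Srxn1, which restores overoxidised peroxiredoxins and is a widely used Nrf2 target, was not called. Its counts were low, from 3 per library, and its levels were 3.56 ± 1.16 CPM in Control, 6.96 ± 1.66 in ADEB18 0.5, 7.06 ± 2.498 in BKC 0.5 and 8.40 ± 3.75 in BKC 1 (SD, n = 4). The log2 fold change in BKC 1 was 1.24 ± 0.51 (SE, adjusted p = 0.115), with a 95% interval of 0.21 to 2.27. Prdx6, a peroxiredoxin with phospholipase activity, was below 0 in all 12 comparisons and called in none, from -0.33 in ADEB18 0.25 to -0.01 in DDAC 0.25.

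Some members moved with a set of genes that differed between libraries of the same group. The second principal component of the differences from group means held 4.95% of the variance within groups, and 74 genes that are not members correlated with it above 0.7 in the same direction. Their mean log2 CPM, called the set score here, was chosen from these data. Within groups, Txn1, Gclc, Ftl1, Abcc1 and Gsr correlated with the score at 0.68, 0.66, 0.66, 0.64 and 0.63 over 52 libraries, Sod3 and Sqstm1 at -0.50 and -0.49, and Hmox1, Txnrd1 and Sod2 at 0.06, -0.03 and -0.03, as a description of libraries that share their group. The ABD 0.25 libraries show it plainly: Ftl1 read 18.7, 153, 37.4 and 154 CPM, Txn1 201, 661, 346 and 800.1 CPM and Gclc 6.49, 21.5, 6.04 and 21.6 CPM, with replicates 2 and 4 high in all 3 genes.

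The set score also differed between groups. It was 5.13 ± 0.198 in Control, 5.27 ± 0.202 in ABD 0.5, 5.85 ± 0.192 in ADEB18 0.5, 5.44 ± 0.191 in BKC 0.5, 5.79 ± 0.415 in BKC 1 and 6.12 ± 0.177 in DDAC 0.25 (log2 CPM, SD, n = 4). It was also 5.98 ± 0.143 in DDAC 0.0625, 5.98 ± 0.163 in DDAC 0.125 and 5.74 ± 0.343 in BKC 0.25. The score was thus higher in DDAC 0.25 than in ADEB18 0.5. In DDAC 0.25 edgeR called no member, while DESeq2 called some, among them Ftl1 and Txn1. With the score as a covariate, an alternative added after seeing the data, 2 members were called in ADEB18 0.5 (Sod2 and Sod3), 12 in BKC 0.5 (without Txn1 and Prdx1, and with Pgd and Taldo1) and 5 in BKC 1 (Hmox1, Prdx1, Sod2, Sod3 and Txnrd1). The log2 fold change of Ftl1 went to 0.70 in ADEB18 0.5 (adjusted p = 0.294) and that of Txn1 to 0.34 (adjusted p = 0.401). Hmox1 in ADEB18 0.5 kept a log2 fold change of 1.85 (adjusted p = 0.0705). Because the score itself differs between groups, what belongs to the compounds and what belongs to the set cannot be told apart.

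**Figure D4:**
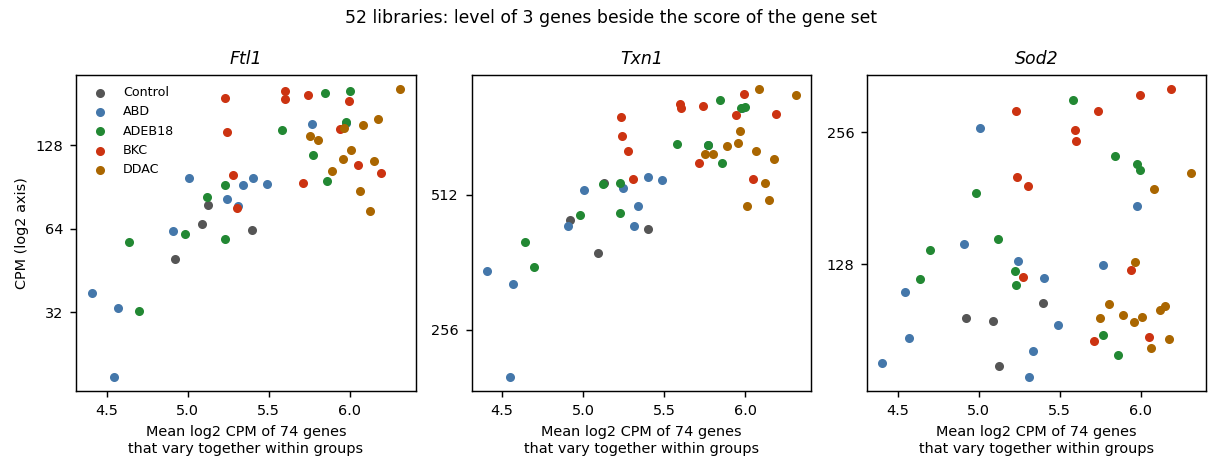
CPM of Ftl1, Txn1 and Sod2 (log2 axes) against the mean log2 CPM of 74 other genes that vary together within groups, 1 point per library, 52 in all, coloured by compound. Ftl1 and Txn1 rise along the score in ABD and ADEB18 libraries, whereas Sod2 is low in most DDAC libraries although these lie at the high end of the score.

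The superoxide dismutases did not move together. Sod2, the mitochondrial manganese enzyme, rose in the 3 groups. Its Control libraries had 94.9, 75.04, 104 and 96.6 CPM. The ADEB18 0.5 libraries read 210.2, 226, 217 and 302 CPM, those of BKC 0.5 read 245, 203, 259 and 193 CPM and those of BKC 1 read 311, 286, 286 and 321 CPM. The lowest of these 12 libraries lay well above the highest Control library. The change of Sod2 on the log2 scale was 1.36 ± 0.27 (SE, adjusted p = 0.00264) in ADEB18 0.5, 1.28 ± 0.27 (SE, adjusted p = 0.00201) in BKC 0.5 and 1.70 ± 0.27 (SE, adjusted p = 9.59e-05) in BKC 1. The 3 calls remained without any 1 library, under every other scaling, filter and tool tried and with either added covariate, with a highest adjusted p of 0.0162 when 1 library was left out.

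Sod3, the extracellular enzyme, fell in 4 groups. Control had 225, 205, 178 and 269 CPM. ADEB18 0.5 read 98.9, 99.9, 119.7 and 98.5 CPM, BKC 0.25 read 95.9, 123, 149 and 123 CPM, BKC 0.5 read 103, 119, 72.4 and 159 CPM and BKC 1 read 110.4, 127, 131 and 67.6 CPM. All 16 of these dosed libraries lay below all 4 Control libraries. This separation was not particular to the called groups. DDAC 0.0625 (149 ± 9.98 CPM), DDAC 0.125 (154 ± 8.05) and ADEB18 0.125 (145 ± 20.1, SD, n = 4) also lay wholly below Control and were not called. Sod3 had log2 fold changes of -1.07 ± 0.17 (SE, adjusted p = 4.45e-04) in ADEB18 0.5, -0.84 ± 0.17 (SE, adjusted p = 0.0171) in BKC 0.25, -0.95 ± 0.17 (SE, adjusted p = 5.12e-04) in BKC 0.5 and -1.01 ± 0.17 (SE, adjusted p = 2.31e-04) in BKC 1. The calls in ADEB18 0.5, BKC 0.5 and BKC 1 remained without any 1 library, while that in BKC 0.25 was lost without any 1 of 4 libraries, BKC 0.25 replicates 1, 2 and 4 or Control replicate 4 (adjusted p at most 0.150), with the 2 groups fitted alone (adjusted p = 0.0622) and with the set score as a covariate (adjusted p = 0.265). Sod3 was below Control in all 12 comparisons, with log2 fold changes of -0.59 ± 0.17 (SE, adjusted p = 0.247) in ADEB18 0.125 and of -0.56, -0.51 and -0.54 in the 3 DDAC groups among those that edgeR did not call. Sod1, the cytosolic copper and zinc enzyme, was called nowhere, with log2 fold changes from -0.14 in BKC 0.25 to 0.08 in ABD 0.125.

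Cat, which encodes catalase, the peroxisomal enzyme that splits hydrogen peroxide, fell in the same 3 groups. Control libraries had 191, 212, 175 and 164 CPM. The ADEB18 0.5 libraries had 123, 126, 162 and 133 CPM, those of BKC 0.5 had 131, 127, 104 and 134 CPM and those of BKC 1 had 139, 108, 151 and 122 CPM. All 12 lay below Control, the nearest by a small margin in ADEB18 0.5. For Cat, the log2 fold change was -0.44 ± 0.14 (SE, adjusted p = 0.0455) in ADEB18 0.5, -0.58 ± 0.14 (SE, adjusted p = 0.00438) in BKC 0.5 and -0.51 ± 0.14 (SE, adjusted p = 0.0109) in BKC 1. In ADEB18 0.5 the call was lost without any 1 of 6 libraries, ADEB18 0.5 replicates 1, 2 and 4 or Control replicates 1, 2 and 4 (adjusted p at most 0.144) and with no filter on low counts (adjusted p = 0.0659). In BKC 0.5 it was lost without BKC 0.5 replicate 3 (adjusted p = 0.0514), and in BKC 1 it was lost without BKC 1 replicate 2 (adjusted p = 0.0678) and with the 2 groups fitted alone (adjusted p = 0.0501).

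Of the glutathione peroxidases, Gpx2 and Gpx4 were each called in BKC 0.5. Gpx2, an epithelial glutathione peroxidase and known Nrf2 target, was at 301 ± 79.5 CPM against 169 ± 35.99 CPM in Control (SD, n = 4; log2 fold change 0.83 ± 0.23 SE, adjusted p = 0.0151). That call was lost without any 1 of 3 libraries, BKC 0.5 replicates 2 and 3 or Control replicate 4 (adjusted p at most 0.0883). Gpx4, which reduces lipid peroxides in membranes, was at 84.4 ± 9.002 CPM against 108 ± 15.9 CPM (SD, n = 4; log2 fold change -0.36 ± 0.12 SE, adjusted p = 0.0392). Its call was lost without any 1 of 5 libraries, BKC 0.5 replicates 2, 3 and 4 or Control replicates 1 and 4 (adjusted p at most 0.245), with no filter on low counts and with the 2 groups fitted alone (adjusted p = 0.0771 and 0.148). Gpx1, the main cytosolic form, was called in no comparison, with log2 fold changes from -0.07 in ABD 0.125 to 0.45 in BKC 1, where its adjusted p was 0.0577.

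None of the 4 genes of glutathione synthesis and recycling was called against Control. Gclc and Gclm, the catalytic and modifier subunits of the enzyme that limits glutathione synthesis, had log2 fold changes from -0.16 in ABD 0.125 to 0.87 in DDAC 0.125 and from -0.12 in BKC 0.5 to 0.57 in DDAC 0.125. Slc7a11, which imports cystine for glutathione, was listed at 0 to 6.35 CPM in the 52 libraries, and its log2 fold changes, all positive, ran from 0.14 in DDAC 0.25 to 2.07 in BKC 1 with a 95% interval of -0.02 to 4.15 in BKC 1. Gsr, glutathione reductase, ran from -0.39 in ABD 0.125 to 0.58 in ADEB18 0.5. In DDAC 0.125, Gclc stood at 18.4, 20.5, 25.4 and 9.08 CPM against 5.25, 14.7, 10.9 and 9.41 CPM in Control. The 95% interval of its log2 fold change there was 0.23 to 1.52, and its p adjusted over all genes by edgeR's quasi-likelihood test was 0.148.

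**Figure D5:**
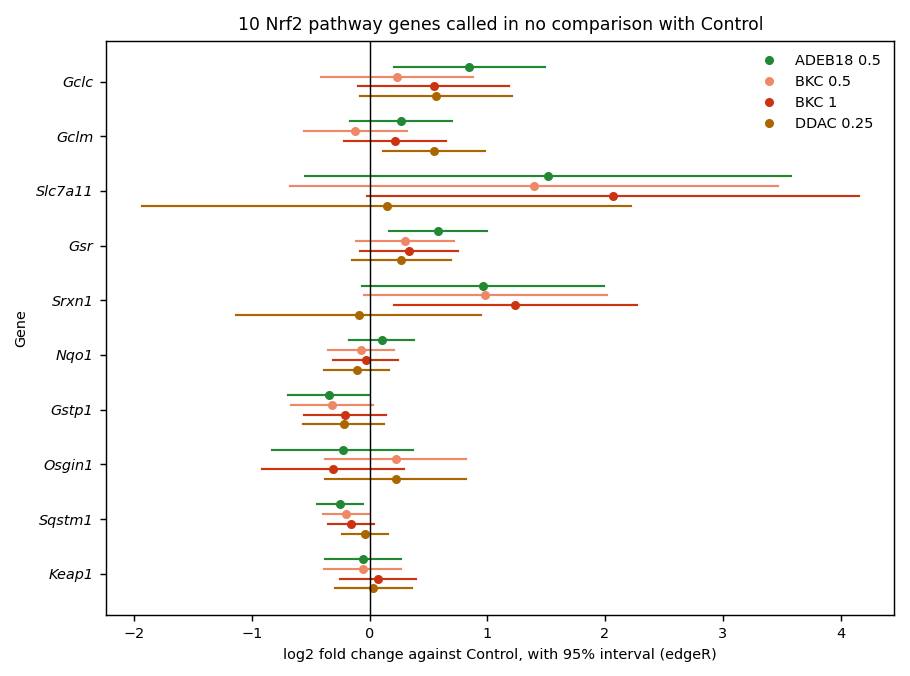
The log2 fold change against Control (points) with its 95% interval (lines) in 4 groups, for 10 genes of the pathway that edgeR called in no comparison with Control. Nqo1, Gstp1, Sqstm1 and Keap1 have short intervals around or below 0, while those of Slc7a11 and Srxn1 are wide.

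Detoxification genes were not called either. Nqo1, a quinone reductase and textbook Nrf2 target, was at 66.6 ± 6.34 CPM in Control, 71.6 ± 7.31 in ADEB18 0.5, 63.4 ± 8.55 in BKC 0.5 and 65.2 ± 14.4 in BKC 1 (SD, n = 4). The 95% interval of its log2 fold change was -0.17 to 0.38 in ADEB18 0.5, -0.35 to 0.21 in BKC 0.5 and -0.31 to 0.25 in BKC 1, so that a rise of the size of Txnrd1 in BKC 1 (0.56) lay outside all 3. Gstp1, a glutathione S-transferase, ran from -0.35 in ADEB18 0.5 to 0.17 in DDAC 0.0625, Ephx1, microsomal epoxide hydrolase, from -0.52 in BKC 1 to 0.24 in ADEB18 0.125, and Abcc1, a pump that exports glutathione conjugates, from -0.20 in ABD 0.25 to 0.52 in ADEB18 0.5.

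Of the enzymes that supply NADPH, Tkt, a transketolase of the pentose phosphate pathway, was called once. It was at 388 ± 70.7 CPM in BKC 0.5 against 280.1 ± 9.08 CPM in Control (SD, n = 4; log2 fold change 0.47 ± 0.14 SE, adjusted p = 0.0262). The Tkt call was lost without any 1 of 4 libraries, BKC 0.5 replicates 2 and 3 or Control replicates 1 and 4 (adjusted p at most 0.178) and with the 2 groups fitted alone (adjusted p = 0.0719). Pgd and Taldo1, of the same pathway, were also highest in BKC 0.5 without passing the test (log2 fold changes 0.42 ± 0.15 SE, adjusted p = 0.0609, and 0.44 ± 0.15 SE, adjusted p = 0.0597). Me1, malic enzyme, ran from -0.37 in DDAC 0.0625 to 0.35 in BKC 1.

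Among the regulators, the transcript of Nrf2 itself rose modestly. Nfe2l2 was at 102, 94.2, 121 and 101 CPM in Control. ADEB18 0.5 read 132, 149, 142 and 131 CPM, BKC 0.5 read 137, 133, 132 and 152 CPM and BKC 1 read 145, 107, 134 and 130.1 CPM. The first 2 of these groups lay wholly above Control, and BKC 1 overlapped it. Nfe2l2 had a log2 fold change of 0.41 ± 0.11 (SE, adjusted p = 0.0310) in ADEB18 0.5, 0.41 ± 0.11 (SE, adjusted p = 0.0183) in BKC 0.5, and in BKC 1 it was not called (0.30 ± 0.11 SE, adjusted p = 0.0799). The ADEB18 0.5 call was lost without any 1 of 5 libraries, ADEB18 0.5 replicates 2 and 3 or Control replicates 1, 2 and 4 (adjusted p at most 0.103) and with no filter on low counts (adjusted p = 0.0560). The BKC 0.5 call was lost without any 1 of 2 libraries, Control replicates 2 and 4 (adjusted p at most 0.0667) and with the 2 groups fitted alone (adjusted p = 0.0720).

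Mafg, a small Maf partner of Nrf2, fell in DDAC 0.0625, at 65.6 ± 2.12 CPM against 91.6 ± 21.5 CPM in Control (SD, n = 4; log2 fold change -0.48 ± 0.11 SE, adjusted p = 0.0111). The call was lost without Control replicate 4 (adjusted p = 0.120), with the 2 groups fitted alone (adjusted p = 0.128) and with the set score as a covariate (adjusted p = 0.164). Control itself was split, at 73.98, 102, 73.5 and 117 CPM, and all 12 dosed groups had a log2 fold change below 0. Keap1, the repressor, ran from -0.06 in BKC 0.5 to 0.22 in ABD 0.5, Sqstm1, the p62 adaptor that binds Keap1, from -0.26 in DDAC 0.0625 to 0.04 in ABD 0.125, and Osgin1, a stress-induced growth inhibitor, from -0.39 in ABD 0.125 to 0.45 in DDAC 0.125, none of them called.

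Between the highest and the lowest dose of a compound, without the Control libraries, Hmox1 and Sod2 rose from BKC 0.25 to BKC 1. Hmox1 was at 24.9, 30.04, 21.9 and 21.8 CPM in BKC 0.25, below all 4 libraries of BKC 1, with a log2 fold change of 2.44 ± 0.47 (SE, adjusted p = 0.00213). Sod2 was at 119, 124, 85.7 and 87.2 CPM in BKC 0.25, also below all of BKC 1, with a log2 fold change of 1.53 ± 0.27 (SE, adjusted p = 9.06e-04). Both calls remained without any 1 library, and 3.99% of all genes were called and 2.72% were higher. Sod3, in contrast, was already low in BKC 0.25, and its log2 fold change between these doses was -0.17 ± 0.17 (SE, adjusted p = 0.702). Between ADEB18 0.5 and ADEB18 0.125, Txnrd1 (0.40 ± 0.12 SE, adjusted p = 0.0472) and Nfe2l2 (0.41 ± 0.11 SE, adjusted p = 0.0428) rose, where 2.44% of all genes were called and 1.70% were higher. Each was lost without any 1 of 7 of the 8 libraries (adjusted p at most 0.209 for Txnrd1 and 0.168 for Nfe2l2), the exception being ADEB18 0.125 replicate 2. Both were also lost under RLE size factors, with no filter and with the 2 groups fitted alone (adjusted p at most 0.109). No member was called by edgeR or DESeq2 between ABD 0.5 and 0.125 (background 0.0169%, 3 members at an unadjusted p under 0.05) or between DDAC 0.25 and 0.0625 (background 0.0225%, 5 members).

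Compounds given at the same dose value formed 12 pairs, and 6 of 396 member tests were called (1.52%), with p-values adjusted over all genes within each pair. Over the same 12 pairs, 3132 of 213552 tests of all genes were called (1.47%), so the members' share was close to the background. The labels do not say that equal values are equal amounts. All 6 calls set ADEB18 or BKC at 0.5 apart from ABD at 0.5. Against ABD 0.5, ADEB18 0.5 was higher in Txnrd1 (0.40 ± 0.12 SE, adjusted p = 0.0416) and Nfe2l2 (0.40 ± 0.11 SE, adjusted p = 0.0385) and lower in Sod3 (-0.74 ± 0.17 SE, adjusted p = 0.0134), where 3.51% of all genes were called, 1.88% higher and 1.62% lower. The ABD 0.5 libraries read 102, 90.7, 79.5 and 92.6 CPM for Txnrd1, 102, 95.4, 115 and 107 CPM for Nfe2l2 and 172, 170.2, 189 and 165 CPM for Sod3, and overlapped ADEB18 0.5 in none of the 3. The Sod3 call was lost without ABD 0.5 replicate 3 (adjusted p = 0.0522), that of Txnrd1 was lost without any 1 of 7 libraries, ABD 0.5 replicates 2, 3 and 4 or ADEB18 0.5 replicates 1, 2, 3 and 4 (adjusted p at most 0.163), and that of Nfe2l2 without any 1 of the 8 (adjusted p at most 0.111). With no filter on low counts Txnrd1 and Nfe2l2 were lost as well (adjusted p = 0.0705 and 0.0638).

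Against the same ABD 0.5 libraries, BKC 0.5 was higher in Nfe2l2 (0.40 ± 0.11 SE, adjusted p = 0.0219) and lower in Cat (-0.52 ± 0.14 SE, adjusted p = 0.0121) and Sod3 (-0.62 ± 0.17 SE, adjusted p = 0.0194), which is 9.09% of 33, where 8.28% of all genes were called, 4.41% higher and 3.87% lower. The Nfe2l2 call was lost without any 1 of 2 libraries, ABD 0.5 replicates 2 and 4 (adjusted p at most 0.0575), that of Cat was lost without any 1 of 2 libraries, ABD 0.5 replicate 3 or BKC 0.5 replicate 3 (adjusted p at most 0.0962) and that of Sod3 was lost without any 1 of 3 libraries, ABD 0.5 replicate 3 or BKC 0.5 replicates 1 and 3 (adjusted p at most 0.172) and with the 2 groups fitted alone (adjusted p = 0.0755). Hmox1 and Sod2 were called in neither pair, with log2 differences of 0.43 ± 0.45 (SE, adjusted p = 0.660) and 0.75 ± 0.27 (SE, adjusted p = 0.0990) for ADEB18 and 0.04 ± 0.45 (SE, adjusted p = 0.979) and 0.67 ± 0.27 (SE, adjusted p = 0.113) for BKC. The high replicate 1 of ABD 0.5 belongs to both.

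Between BKC 0.5 and ADEB18 0.5 no member was called by edgeR or DESeq2, and edgeR called 0% of all genes, with 1 member at an unadjusted p under 0.05. The 95% interval of their log2 difference was -1.28 to 0.51 for Hmox1, -0.62 to 0.45 for Sod2, -0.23 to 0.47 for Sod3 and -0.34 to 0.13 for Txnrd1. None of the 9 pairs at 0.125 and 0.25 held a call by edgeR, with 1 to 10 members at an unadjusted p under 0.05, and DESeq2 called up to 2. Of all genes, edgeR called 0.0169% between ADEB18 and ABD at 0.125 and again at 0.25, 1.97% between DDAC and ABD and 1.05% between DDAC and ADEB18 at 0.125, and at 0.25 it called 0.129% between BKC and ABD, 0% between BKC and ADEB18, 1.29% between DDAC and ABD, 1.31% between DDAC and ADEB18 and 0.0337% between DDAC and BKC. At 0.25, the log2 difference between DDAC and BKC was 0.98 in Hmox1 (95% interval 0.05 to 1.90) and 0.30 in Sod3 (-0.05 to 0.65), and that between DDAC and ABD was 0.77 in Ftl1 (0.02 to 1.52).

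Beyond the 33 members, 95 further genes of the pathway were listed and 92 were tested (Gsta2, Ugt1a6 and Duox2 were not). Of these, 5 rose and 6 fell in ADEB18 0.5, 9 rose and 12 fell in BKC 0.5, and 11 rose and 8 fell in BKC 1, which is 11.96%, 22.8% and 20.7% of the 92, beside 4.66%, 9.15% and 10.4% of all genes in the same groups. No gene of the list was called in the ABD groups or in ADEB18 0.125 and 0.25. Among 8 regulators, Rbx1, a subunit of the ubiquitin ligase through which Keap1 acts, rose in all 3 groups, for example from 154 ± 7.87 CPM in Control to 198 ± 8.36 CPM in BKC 1 (SD, n = 4; log2 fold change 0.36 ± 0.09 SE, adjusted p = 0.00497), a call that remained without any 1 library (highest adjusted p = 0.0249) but was lost with the 2 groups fitted alone (adjusted p = 0.0736). The BKC 0.5 call was lost in the same way (adjusted p = 0.0658), and that of ADEB18 0.5 was lost without any 1 of 3 libraries, ADEB18 0.5 replicate 2 or Control replicates 2 and 4 (adjusted p at most 0.0741) and with no filter on low counts (adjusted p = 0.0561). Mafk, a small Maf protein of the regulator list, fell in ADEB18 0.5 (log2 fold change -0.55 ± 0.17 SE, adjusted p = 0.0427) and in BKC 0.5 (-0.56 ± 0.17 SE, adjusted p = 0.0261). It was not called in BKC 1, and how its calls held without single libraries is not given here. Of 14 glutathione S-transferases, 0 rose and 2 fell in ADEB18 0.5, 1 rose and 4 fell in BKC 0.5, and 1 rose and 2 fell in BKC 1. Gstm2, a mu class transferase, went from 184 ± 28.1 CPM in Control to 95.7 ± 23.8 CPM in BKC 1 (SD, n = 4; log2 fold change -0.94 ± 0.16 SE, adjusted p = 1.52e-04). Of 5 genes of the glutathione peroxidase list, Gpx3, the plasma glutathione peroxidase, and Selenop, a selenium carrier, fell in all 3 groups, Gpx3 from 599.7 ± 164 CPM in Control to 313 ± 73.7 CPM in BKC 1 (SD, n = 4; log2 fold change -0.94 ± 0.20 SE, adjusted p = 0.00200). The calls of Gstm2 and Gpx3 in BKC 1 remained without any 1 library, while in ADEB18 0.5 that of Gstm2 was lost without Control replicate 4 (adjusted p = 0.0550) and that of Gpx3 was lost without any 1 of 2 libraries, ADEB18 0.5 replicate 4 or Control replicate 4 (adjusted p at most 0.125). The Selenop call in BKC 0.5 remained without any 1 library (highest adjusted p = 0.0144). In ADEB18 0.5 it was lost without any 1 of 4 libraries, ADEB18 0.5 replicates 2 and 4 or Control replicates 1 and 4 (adjusted p at most 0.102), and in BKC 1 it was lost without any 1 of 4 libraries, BKC 1 replicates 2 and 4 or Control replicates 1 and 4 (adjusted p at most 0.171) and with the 2 groups fitted alone (adjusted p = 0.118).

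In the thioredoxin and peroxiredoxin list of 12 genes, 2 rose in ADEB18 0.5, 4 in BKC 0.5 and 4 in BKC 1, and none fell. Prdx5, a mitochondrial and peroxisomal peroxiredoxin, went from 259 ± 17.4 CPM in Control to 459.7 ± 129 CPM in BKC 1 (SD, n = 4; log2 fold change 0.82 ± 0.21 SE, adjusted p = 0.00743), a call that was lost without BKC 1 replicate 2 (adjusted p = 0.0688). In the heme, iron and metal list, Tfrc, the transferrin receptor that takes up iron, rose in all 3 groups, for example from 27.2 ± 3.81 CPM in Control to 58.5 ± 14.8 CPM in BKC 1 (SD, n = 4; log2 fold change 1.11 ± 0.21 SE, adjusted p = 6.46e-04). The BKC calls of Tfrc remained without any 1 library, and that of ADEB18 0.5 was lost without any 1 of 4 libraries, ADEB18 0.5 replicates 3 and 4 or Control replicates 1 and 4 (adjusted p at most 0.0855). With the set score as a covariate, the ADEB18 0.5 calls of Gstm2, Selenop, Gpx3, Tfrc and Abcc4 were lost (adjusted p = 0.0581, 0.0609, 0.0799, 0.109 and 0.112). Abcc4, an export pump, fell in all 3, for example from 62.4 ± 5.35 CPM in Control to 41.3 ± 3.81 CPM in BKC 1 (SD, n = 4; log2 fold change -0.59 ± 0.13 SE, adjusted p = 0.00149). Its BKC 0.5 call was lost without any 1 of 5 libraries, BKC 0.5 replicates 1, 2 and 3 or Control replicates 2 and 4 (adjusted p at most 0.0947), with no filter and with the 2 groups fitted alone (adjusted p = 0.0531 and 0.0650).

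In the DDAC groups few of the 92 genes were called. In DDAC 0.0625, 3 rose and 1 fell (4.35%, against 2.32% of all genes), in DDAC 0.125, 1 rose and 1 fell (2.17%, against 1.48%), and in DDAC 0.25, 1 rose and 2 fell (3.26%, against 2.47%). Several were also called in other groups. Akr1a1, an aldehyde reductase, rose in DDAC 0.0625 and BKC 1. Msrb1, a methionine sulfoxide reductase, rose in DDAC 0.0625, ADEB18 0.5, BKC 0.5 and BKC 1. Prdx4, a peroxiredoxin of the endoplasmic reticulum, rose in DDAC 0.25, BKC 0.5 and BKC 1. Ggct, a glutathione-breaking enzyme, fell in DDAC 0.25. The call of Akr1a1 in DDAC 0.0625 was lost without DDAC 0.0625 replicate 3 (adjusted p = 0.0542), and that in BKC 1 remained without any 1 library (highest adjusted p = 0.0335). With the 2 groups fitted alone both were lost (adjusted p = 0.0530 and 0.0536). The Msrb1 call in DDAC 0.0625 was lost without any 1 of 2 libraries, Control replicate 4 or DDAC 0.0625 replicate 3 (adjusted p at most 0.139), and that in BKC 0.5 was lost without Control replicate 4 (adjusted p = 0.0659). In ADEB18 0.5 it was lost without any 1 of 6 libraries, ADEB18 0.5 replicates 1, 2, 3 and 4 or Control replicates 3 and 4 (adjusted p at most 0.225), and in BKC 1 it was lost without any 1 of 2 libraries, BKC 1 replicate 2 or Control replicate 4 (adjusted p at most 0.162). All 4 Msrb1 calls were lost with the 2 groups fitted alone (adjusted p = 0.112, 0.0787, 0.0983 and 0.126 in this order), and that of ADEB18 0.5 also with no filter on low counts (adjusted p = 0.0552). The Prdx4 call in DDAC 0.25 was lost without any 1 of 7 libraries, Control replicates 1, 2 and 4 or DDAC 0.25 replicates 1, 2, 3 and 4 (adjusted p at most 0.177) and with no filter (adjusted p = 0.0561). In BKC 0.5 it was lost without any 1 of 4 libraries, BKC 0.5 replicates 2 and 3 or Control replicates 2 and 4 (adjusted p at most 0.124) and with the 2 groups fitted alone (adjusted p = 0.0612), and in BKC 1 it was lost without Control replicate 4 (adjusted p = 0.0716). The Ggct call was lost without any 1 of 7 libraries, Control replicates 2, 3 and 4 or DDAC 0.25 replicates 1, 2, 3 and 4 (adjusted p at most 0.128), with no filter and with the 2 groups fitted alone (adjusted p = 0.0671 and 0.0874). With the set score as a covariate, the DDAC calls of Akr1a1, Msrb1, Prdx4 and Ggct were lost (adjusted p = 0.106, 0.165, 0.487 and 0.292). So were those of Msrb1 in ADEB18 0.5 and of Msrb1 and Prdx4 in BKC 1 (adjusted p = 0.165, 0.0719 and 0.0542). With cardiac muscle markers as a covariate, also added after seeing the data, Prdx4 and Ggct in DDAC 0.25 were lost (adjusted p = 0.0545 and 0.0847).

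Txnip, which binds and inhibits thioredoxin, went from 357 ± 12.2 CPM in Control to 773 ± 58.9 CPM in DDAC 0.0625 (SD, n = 4; log2 fold change 1.12 ± 0.26 SE, adjusted p = 0.0114), and this call remained without any 1 library (highest adjusted p = 0.0420). In DDAC 0.125 Txnip was also higher (0.97 ± 0.26 SE, adjusted p = 0.0387), but this call was lost without any 1 of 7 libraries, the exception being DDAC 0.125 replicate 4 (adjusted p at most 0.128). With the set score as a covariate, both calls were lost (adjusted p = 0.402 and 0.705). Between compounds, Txnip was higher than in ABD in DDAC 0.125 (0.91 ± 0.26 SE, adjusted p = 0.0467), in DDAC 0.25 (1.07 ± 0.26 SE, adjusted p = 0.0252) and in BKC 0.25 (1.36 ± 0.26 SE, adjusted p = 0.0203). BKC 0.25 stood at 750.3 ± 263 CPM and ABD 0.25 at 292 ± 121 CPM (SD, n = 4). Of these 3 calls, the first was lost without any 1 of 6 libraries, ABD 0.125 replicates 1, 2 and 4 or DDAC 0.125 replicates 1, 2 and 3 (adjusted p at most 0.168), the second was lost without any 1 of 5 libraries, ABD 0.25 replicates 1 and 3 or DDAC 0.25 replicates 1, 2 and 4 (adjusted p at most 0.175) and the last was lost without any 1 of 4 libraries, ABD 0.25 replicates 1 and 3 or BKC 0.25 replicates 2 and 4 (adjusted p at most 0.131). With the 2 groups fitted alone the last 2 were lost as well (adjusted p = 0.167 and 0.176).

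Atf4, a transcription factor of the integrated stress response, fell in all 3 DDAC groups and in BKC 0.25. Its log2 fold change was -0.56 ± 0.12 (SE, adjusted p = 0.00476) in DDAC 0.0625, -0.54 ± 0.12 (SE, adjusted p = 0.0117) in DDAC 0.125, -0.40 ± 0.12 (SE, adjusted p = 0.0469) in DDAC 0.25 and -0.60 ± 0.12 (SE, adjusted p = 0.0103) in BKC 0.25. The first of these remained without any 1 library (highest adjusted p = 0.0314), that of DDAC 0.125 was lost without any 1 of 2 libraries, Control replicate 4 or DDAC 0.125 replicate 2 (adjusted p at most 0.0584) and that of BKC 0.25 was lost without any 1 of 2 libraries, BKC 0.25 replicate 4 or Control replicate 4 (adjusted p at most 0.0902). That of DDAC 0.25 was lost without any 1 of its 8 libraries (adjusted p at most 0.156), with no filter on low counts (adjusted p = 0.0742) and with the 2 groups fitted alone (adjusted p = 0.0529). With the set score as a covariate all 4 were lost, at adjusted p = 0.144, 0.227, 0.605 and 0.122 in the order above. Between compounds, Atf4 was lower in DDAC 0.125 than in ABD 0.125 (-0.52 ± 0.12 SE, adjusted p = 0.0114) and ADEB18 0.125 (-0.45 ± 0.12 SE, adjusted p = 0.0368), and lower in BKC 0.25 than in ABD 0.25 (-0.56 ± 0.12 SE, adjusted p = 0.0374). Of these, the first was lost without DDAC 0.125 replicate 2 (adjusted p = 0.0513), the second was lost without any 1 of 5 libraries, ADEB18 0.125 replicates 2 and 3 or DDAC 0.125 replicates 1, 2 and 3 (adjusted p at most 0.240) and the last was lost without any 1 of 6 libraries, ABD 0.25 replicates 1 and 3 or BKC 0.25 replicates 1, 2, 3 and 4 (adjusted p at most 0.158). With the 2 groups fitted alone the last 2 were lost (adjusted p = 0.189 and 0.0958), and the second also with no filter on low counts (adjusted p = 0.0656).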

How the data were processed

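Lung RNA of 52 libraries was sequenced by QuantSeq 3′ mRNA sequencing, per the labels. The deposited values are raw read counts per gene symbol, 1 table per library. fastp, STAR and HTSeq and the mRatBN7.2 build are named, without versions or settings, in the submitters' processing notes. The strand setting of the counting is not given in the sources used here.

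Groups came from the labels. Counts were filtered with filterByExpr (minimum count 10), scaled with TMM and fitted over all 52 libraries and 13 groups with edgeR 4.0.16 in R 4.3.3 (limma 3.58.1), by the quasi-likelihood test with Benjamini-Hochberg adjustment over 17796 genes in each of 28 comparisons: 12 with Control, 4 between highest and lowest dose and 12 between compounds at the same dose value. A gene was called at an adjusted p under 0.05. CPM values use the TMM library sizes, and errors of CPM are SDs over 4 libraries. The SE of an edgeR log2 fold change was derived from its size and the test's F statistic. The 95% intervals were built from this SE and are approximate. The steps were tested on simulated counts. Alternatives were RLE size factors, no filter, DESeq2 1.42.0, the compared groups fitted alone, the replicate number as a block, and each library left out in turn. Covariates for a set of genes that vary together and for cardiac muscle markers were added after seeing the data. Summaries used Python 3.11.15 with pandas 2.3.3.

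The members, the lists and the rule for named genes were chosen with earlier results of these data known. Members called in at least 2 of the 12 comparisons with Control are given in every library, those called in 1 by group means, and the others by their range. Among the other pathway genes, those with the smallest adjusted p in a list could be named. Msrb1, Prdx4 and Mafk outside that rule, and Txnip and Atf4 in the pairs of compounds, were named after their values were seen.

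Depth ranged from 8026084 to 13852249 counts, and low genes such as Slc7a11 and Srxn1 are the least precise. Promoter sequences are those of RefSeq on GRCr8 and were searched by exact letters.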

Additional observations from a re-analysis of the deposited data

Results flagged for a closer look

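Of 182 pairs of a called member and a group, 13 held a library whose gap to the nearest other library passed Dixon's 95% limit for 4 values, where chance gives about 1 in 20. For Hmox1, ADEB18 0.5 replicate 1 stood at 220.1 CPM against 91.0 to 103 CPM in the other 3, and DDAC 0.125 replicate 2 at 95.4 CPM against 20.6 to 21.03 CPM. For Blvrb, ABD 0.5 replicate 2 stood at 22.3 CPM and DDAC 0.0625 replicate 4 at 22.7 CPM, both above the others of their group. BKC 1 held 3 such libraries: replicate 4 was low in Ftl1 at 101.6 CPM, replicate 3 low in Prdx1 at 101.0 CPM and replicate 2 high in Tkt at 391 CPM. In ADEB18 0.125, replicate 2 was high in Txnrd1 at 101.9 CPM and low in Gpx4 at 90.8 CPM. Gpx2 was low in Control replicate 4 at 115.9 CPM and in DDAC 0.125 replicate 3 at 107.7 CPM. Sod3 was high within ADEB18 0.5 in replicate 3, at 119.7 CPM, and Mafg high within DDAC 0.125 in replicate 3, at 83.5 CPM.

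Differences between compounds at the same dose value passed edgeR's quasi-likelihood test in 6 member comparisons, all at 0.5 and all against the same 4 ABD libraries. These are 1.52% of 396 member tests over the 12 pairs of compounds, against 1.47% of the tests of all genes. For BKC 0.5 against ABD 0.5 the shares were 9.09% and 8.28%, and for ADEB18 0.5 against ABD 0.5 they were 9.09% and 3.51%. For ADEB18 against ABD, the log2 difference was 0.40 in Txnrd1, 0.40 in Nfe2l2 and -0.74 in Sod3. For BKC against ABD, it was 0.40 in Nfe2l2, -0.52 in Cat and -0.62 in Sod3.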

How the results depend on the processing

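Direction was followed in 71 pairs of a gene and a comparison, each called under at least 1 setting, and changed in none of them. Because these pairs were picked by their calls, this says nothing on the direction of values that were never called. With Control, the count of called members in ADEB18 0.5, BKC 0.5 and BKC 1 (9, 12 and 9) stayed within 1.5 times under RLE size factors, no filter and DESeq2. With the compared groups fitted alone, counts moved to 0 in BKC 0.25, 7 in BKC 0.5 and 2 in DDAC 0.25, to 4 for BKC 1 against BKC 0.25 and to 8 for ADEB18 0.5 against ABD 0.5. With no filter on low counts, DDAC 0.25 had 2, ADEB18 0.5 against ADEB18 0.125 had 0 (also 0 under RLE size factors) and ADEB18 0.5 against ABD 0.5 had 1. DESeq2 called 2 in DDAC 0.0625, 3 in DDAC 0.25, 4 for BKC 1 against BKC 0.25, 1 for DDAC 0.125 against ABD 0.125, 2 against ADEB18 0.125, 2 for BKC 0.25 against ABD 0.25, 1 for DDAC 0.25 against ADEB18 0.25 and 5 for ADEB18 0.5 against ABD 0.5. DDAC 0.125 against ADEB18 0.125 had 1 under RLE size factors. The covariates, added after seeing the data, moved counts to 2 in ADEB18 0.5, 0 in BKC 0.25, 5 in BKC 1 and 0 in DDAC 0.0625 for the set score and to 1 in DDAC 0.25 for cardiac muscle. The groups fitted alone had fewer libraries in the fit, and the cause of these moves was not tested. Leaving out 1 library gave 4 to 8 members in ADEB18 0.5, 3 to 14 in BKC 0.5, 8 to 10 in BKC 1, and 0 to 1 in ADEB18 0.125, BKC 0.25, DDAC 0.0625 and DDAC 0.25. It gave 0 to 3 for ADEB18 0.5 against ADEB18 0.125, 2 to 4 for BKC 1 against BKC 0.25, 0 to 3 for ADEB18 0.5 against ABD 0.5, 1 to 5 for BKC 0.5 against ABD 0.5, 0 to 3 for DDAC 0.25 against ABD 0.25, 0 to 2 for DDAC 0.25 against ADEB18 0.25, for DDAC 0.125 against ADEB18 0.125 and for BKC 0.25 against ABD 0.25, and 0 to 1 for DDAC 0.125 against ABD 0.125. The remaining 12 comparisons stayed at 0.

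Libraries with the same replicate number did not deviate together: over 312 pairs their residuals correlated at 0.00387 on average, from -0.290 to 0.343, with 54 above 0.1. An average over all genes cannot exclude a pairing by this number that affects few genes. With the number as a replicate block, 9, 14 and 9 members were called in ADEB18 0.5, BKC 0.5 and BKC 1, 1 in DDAC 0.25 and 1 for DDAC 0.125 against ADEB18 0.125.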
